A study of Danio rerio with 4 samples.

Results

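The chemokine and interleukin genes and their receptor genes were examined in FACS-sorted zebrafish β-cells with and without β-cell expression of il1b. The members were all genes of the table whose symbol begins with cxcl, ccl, cxcr, ccr, ackr or il directly before a digit. The genes il1b, il1rl1 and il1rn, and symbols starting with il1rapl, were left out. This gave 72 of the 22044 genes, made up of 11 CXC ligand genes, 18 CC ligand genes, 5 CXC receptor genes, 4 CC receptor genes, 3 atypical receptor genes, 14 interleukin genes and 17 interleukin receptor genes. The rule was read with lower-case symbols, so 4 upper-case rows (CXCR5, CXCL3, an entry listed as CXCL11 and the enzyme gene IL4I1) were not members. The symbol ccl39.3 stands on 2 gene IDs, which are told apart here by their chromosome.

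Messenger RNA was sequenced from β-cells of zebrafish aged 3 months in 2 genotypes with 2 libraries each. WT animals carried the line labelled Tg(ins:mKO), which the methods of the study name Tg(ins:nlsRenilla-mKO2), a reporter for an orange fluorescent protein under the insulin promoter, which marks β-cells. Tg(ins:il1b) animals, labelled Tg(ins:IL1B); Tg(ins:mKO), carried the same reporter and a transgene in which the insulin promoter drives a truncated zebrafish il1b that encodes the presumed mature cytokine with a FLAG tag. The transgenic line descends from a single founder and expresses the cytokine from β-cells only as far as the insulin promoter does. Whether the 2 libraries of a genotype are separate animals or pools is not given in the labels or methods. The spread that the p-values measure is that between these samples only, and may be technical.

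Chemokines are small secreted proteins that direct the migration of leukocytes and other cells through G protein-coupled receptors, and are grouped as CXC or CC by the spacing of their conserved cysteines. Atypical chemokine receptors bind the same ligands but remove them rather than signal through G proteins. Interleukins act through paired receptor chains, most of which signal through JAK kinases and STAT factors, whereas interleukin-1 acts through MyD88, IRAK kinases and NF-κB. In inflamed islets, chemokines released by β-cells are known from mammals as a signal that draws macrophages and T cells.

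The transgene was visible in the counts of il1b, which stood at 11 and 1.9 normalised counts in WT against 587911 and 423851 in Tg(ins:il1b). Normalised counts are read counts per gene divided by a factor for each library. The whole reads behind them summed to between 28524617 and 35637508 per library. Insulin mRNA was the most abundant β-cell marker in every library, although of the 12 β-cell markers slc30a8 had at most 8.5 normalised counts. Tg(ins:il1b) replicate 2 stood furthest from the rest. The correlation of its log2 values was 0.923 with the other Tg(ins:il1b) library and 0.885 and 0.886 with the WT libraries, against 0.943 between the WT libraries.

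The members together took between 0.0944% and 0.125% of the reads of a library, and 20 of the 72 had a mean of at least 100 normalised counts. The gene cxcl14 alone made up 71.5% and 74.2% of the members' reads in WT, against 62.8% and 45.4% in Tg(ins:il1b). Its product is a chemokine of epithelia and adipose tissue in mammals, made there without inflammation. Per kilobase of exon, the mean level of cxcl14 was 14524 normalised counts in WT and 11218 in Tg(ins:il1b), the highest of all members in both genotypes. Over all 4 libraries cxcl18b stood second on this scale, followed by il11ra, ccl39.3 of chromosome 6 and ccl19b. The places of cxcl18b (63.7 in WT against 2011 in Tg(ins:il1b)) and ccl19b (69.4 against 1448) rest on Tg(ins:il1b). In WT both stood far below il11ra (948) and ccl39.3 of chromosome 6 (703). At the other end, 17 members had a mean below 10 normalised counts.

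Summed by class, CC ligands and CXC ligands other than cxcl14 lay above WT in both Tg(ins:il1b) libraries. The 18 CC ligand genes summed to 919.4 and 1258.8 normalised counts in WT and to 2769.2 and 5906.2 in Tg(ins:il1b). The 10 CXC ligand genes besides cxcl14 summed to 832.1 and 610.5 in WT and to 1892.9 and 3993.4 in Tg(ins:il1b). Most of the Tg(ins:il1b) sums came from cxcl18b alone (108.4 and 31.8 in WT against 1591.8 and 2836.1). Most of the WT sums came from cxcl20, which overlapped (559.3 and 496.8 against 204.2 and 696.7). The CXC sum therefore does not show a rise across the class. Of the 8 CXC ligand genes tested, cxcl14 included, 3 lay above WT in both Tg(ins:il1b) libraries and 5 overlapped. Among all genes tested, 22.3% lay above WT and 22.1% below it. Among the other classes, CXC receptor genes summed to 523.5 and 528.7 in WT and to 475.8 and 631.5 in Tg(ins:il1b), so the genotypes overlapped, as they did for the interleukin genes (586.0 and 729.4 against 511.4 and 1142.2). The sums of the CC receptor genes (87.3 and 157.3 against 186.0 and 359.0), atypical receptor genes (319.6 and 381.1 against 410.3 and 512.9) and interleukin receptor genes (5414.2 and 6285.3 against 7175.6 and 6919.5) were higher in both Tg(ins:il1b) libraries. These sums do not show a rise across a class either. Most of the CC receptor sums in Tg(ins:il1b) came from ccr8.1 (111.2 and 302.4). Of the genes tested, 2 of 4 CC receptor, 1 of 3 atypical receptor and 5 of 13 interleukin receptor genes lay above WT in both Tg(ins:il1b) libraries. In the same classes 0, 0 and 1 lay below it. In these bulk libraries, a different number of cells of some type and a different amount of RNA per cell cannot be told apart.

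**Figure D1:**
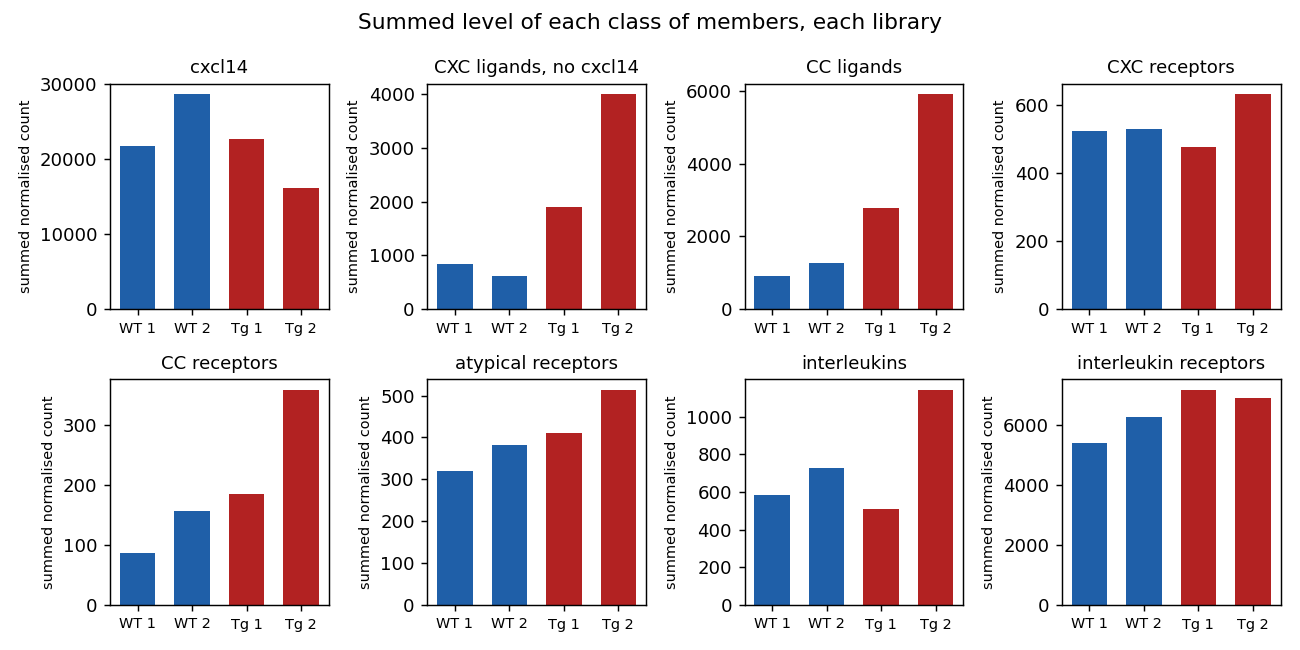
Summed normalised counts (vertical axes, linear from 0) of each class of members in WT replicates 1 and 2 (blue) and Tg(ins:il1b) replicates 1 and 2 (red), 1 bar per library. The CC ligands are at most 1258.8 in WT and at least 2769.2 in Tg(ins:il1b), while the sums of cxcl14, of the CXC receptors and of the interleukins overlap between the genotypes.

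Of the 53 members that passed the filter on low values (10 or more normalised counts in 2 or more libraries), 2 rose and 0 fell in Tg(ins:il1b) by limma with an adjusted p below 0.05, fitted on log2 (normalised count + 1) over 18504 genes. The 2 were cxcl18b and ccl19b. Over all genes tested, limma called 1.1% higher and 0.530% lower. Before adjustment, 14 members were higher and 2 lower in limma with a p below 0.05, where 7.95% and 6.45% of all genes were. DESeq2 on the whole reads, which had 56 members with an adjusted p, called 7 higher and 1 lower (4.24% and 2.45% of all genes), and edgeR called 1 higher and 0 lower (0.903% and 0.373% of all genes). Unadjusted, edgeR had 13 members higher and 2 lower, where 8.12% and 5.89% of all genes were. In both tools the higher members included ccl35.1, cxcl12a, cxcr4a, il11a and il10ra, which passed the filter only through the Tg(ins:il1b) libraries. The lower ones included ccl34a.3, which passed only through WT. These unadjusted counts therefore support nothing by themselves. For low genes the limma fold changes depend on the 1 added before the logarithm, and can lie below or above those of DESeq2. The log2 fold change was 3.96 in limma and 6.39 in DESeq2 for cxcr4a, but 5.22 and 3.74 for ccl39.1.

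Both Tg(ins:il1b) libraries lay above both WT libraries for 20 of the 53 members (37.7%) and below them for 6 (11.3%), whereas 22.3% and 22.1% of all genes did so. The median log2 fold change of the 53 was 0.58, with 40 above 0 and 13 below, and that of all genes tested was -0.0094, with 9122 above 0 and 9382 below. It was 1.94 for the 11 CC ligand genes tested and 0.57 for the 8 CXC ligand genes. These counts describe the members that passed the filter and support nothing by themselves, since 5 passed only through the Tg(ins:il1b) libraries (ccl35.1, cxcl12a, cxcr4a, il11a and il10ra) and 2 only through WT (ccl34a.3 and il13). The other 19 members were too low for the test.

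**Figure D2:**
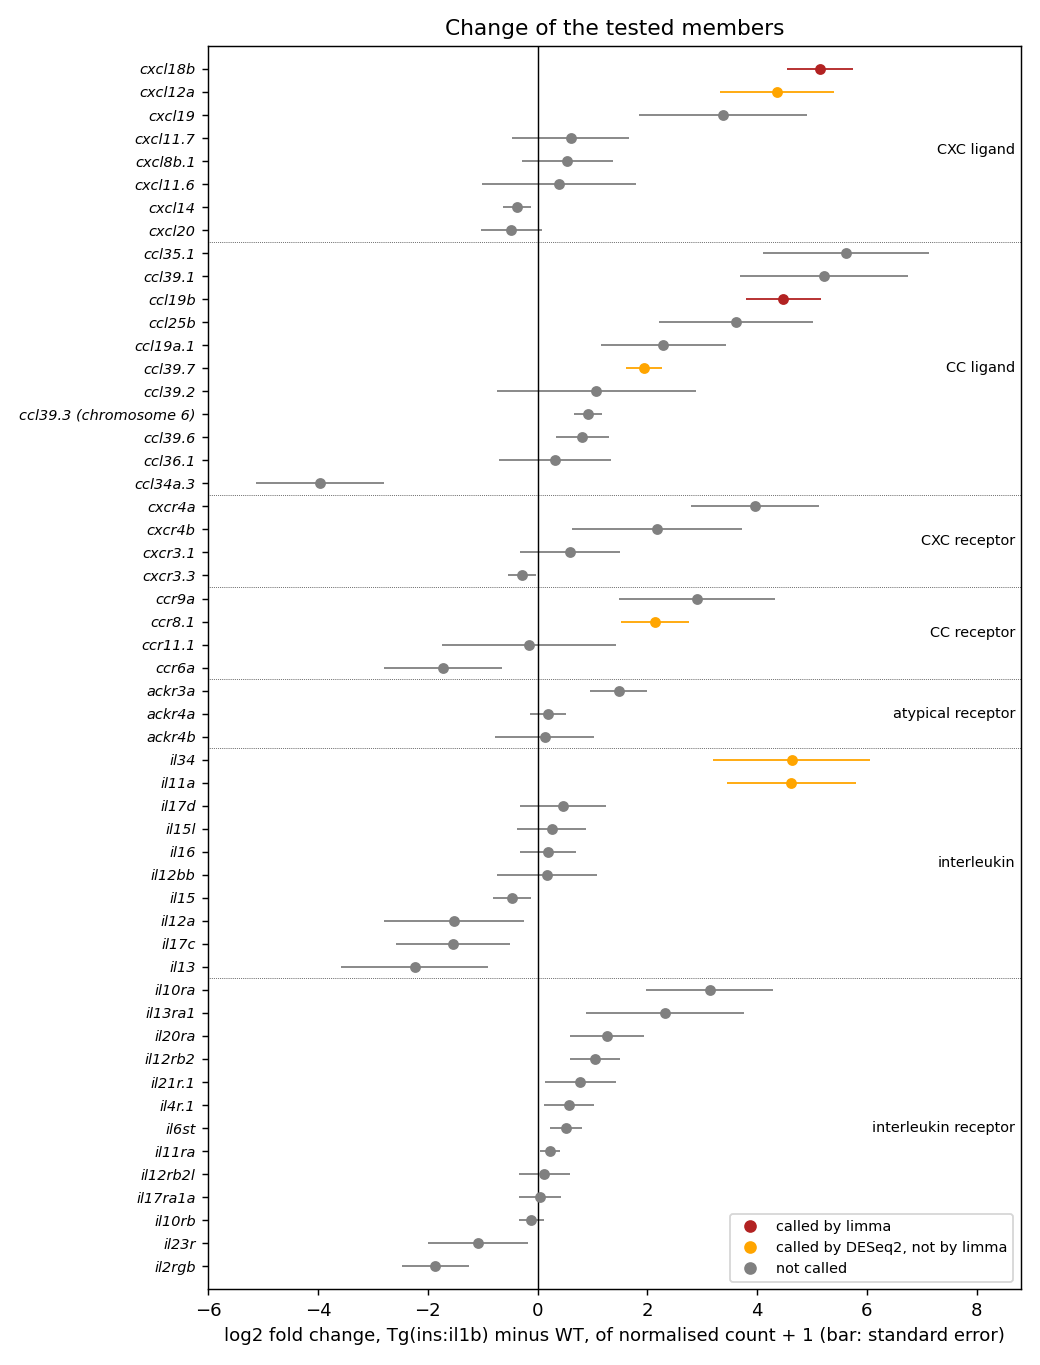
Log2 fold change of the 53 members tested, Tg(ins:il1b) minus WT, on log2 (normalised count + 1), with the standard error from limma as bars and the members grouped by class. Those called by limma (cxcl18b and ccl19b) are red and those called by DESeq2 but not by limma are orange, and most of the CC ligands stand to the right of 0.

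Among the CXC ligands, cxcl18b rose most clearly. This fish chemokine attracts neutrophils in zebrafish larvae. The study already named its gene among the upregulated inflammation genes, from these same samples. The gene, ENSDARG00000075045 at 48577744 to 48581470 of chromosome 1 in GRCz10, stood at 108.4 and 31.8 normalised counts in WT against 1591.8 and 2836.1 in Tg(ins:il1b). Every Tg(ins:il1b) value was far above the WT values. The log2 fold change was 5.15 (standard error 0.60) with an adjusted p of 0.0207 from limma, 6.69e-17 from DESeq2 and 0.0297 from edgeR. Without any 1 of the 4 libraries the log2 fold change was 4.28 to 6.02 in limma. Those limma fits called at most 1 gene of the whole table, so a missing call in them says nothing about a gene, whereas DESeq2 called cxcl18b in all 4 (log2 fold changes from 4.34 to 6.12).

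The cxcl12 genes, whose products are the ligands of Cxcr4 and Ackr3, stood in opposite directions. The gene cxcl12a, which guides migrating cells in the zebrafish embryo, had 0 and 1.9 normalised counts in WT against 29.3 and 39.5 in Tg(ins:il1b). The genotypes did not overlap, and the ratio of the summed counts was 36.4 (95% interval 9.69 to 307, counting error only). Its adjusted p was 0.121 from limma, 0.0228 from DESeq2 and 0.133 from edgeR, and DESeq2 did not call it in any fit without 1 of the libraries (adjusted p of 0.0838 to 0.348 where it gave one). Its paralogue cxcl12b had 120.3 and 6.8 in WT against 1 and 0 in Tg(ins:il1b). It did not pass the filter for limma and fell in DESeq2 (adjusted p = 0.0107), with WT replicate 1 holding most of the reads. DESeq2 gave it no adjusted p without WT replicate 1, 0.0660 without Tg(ins:il1b) replicate 2, 0.0186 without Tg(ins:il1b) replicate 1 and 0.00327 without WT replicate 2.

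The abundant cxcl14 and cxcl20 did not pass the test. The gene cxcl14, at 24103554 to 24113428 of chromosome 14, stood at 21731.3 and 28578.9 in WT against 22697.1 and 16160.7 in Tg(ins:il1b), which overlap. Its log2 fold change was -0.38 with a standard error of 0.25 (limma, adjusted p = 0.580). The gene cxcl20 had 559.3 and 496.8 in WT against 204.2 and 696.7 in Tg(ins:il1b), where its libraries lay on either side of WT. The direction of its log2 fold change, -0.48 (limma, adjusted p = 0.783), turned to 0.40 without Tg(ins:il1b) replicate 1.

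The cxcl11 genes, whose products are ligands of Cxcr3, were high in a single library. Of these, cxcl11.1 had 4.6 and 1.9 normalised counts in WT against 0 and 199.8 in Tg(ins:il1b). The others, cxcl11.5, cxcl11.6 and cxcl11.7, had 2.9 to 21.2 in WT, 2.0 to 8.1 in Tg(ins:il1b) replicate 1 and 35.3 to 51.3 in replicate 2. With cxcl20 they lie on chromosome 5 between 41470542 and 42304152, and the 5 genes summed to 583.2 and 535.3 in WT against 216.3 and 1020.5 in Tg(ins:il1b). Reads of such tandem copies may be split between them. The genes cxcl11.5, cxcl11.6 and cxcl11.7 also lie over si:ch211-202a12.4 on the opposite strand, whose reads cannot be told from theirs. The values of single cxcl11 genes are therefore uncertain. The gene cxcl8b.1, whose mammalian counterpart encodes the neutrophil chemoattractant interleukin-8, had 20.2 and 8.7 in WT against 14.1 and 27.8 in Tg(ins:il1b). The gene cxcl19 had 0 and 26.0 in WT against 40.4 and 69.5 in Tg(ins:il1b), without overlap.

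Among the CC ligands, ccl19b rose. Its mammalian counterpart is the ligand of CCR7, which brings dendritic cells and T cells into lymphoid tissue. The gene, ENSDARG00000039351 at 17819547 to 17822668 of chromosome 10, stood at 23.0 and 80.1 normalised counts in WT against 632.7 and 1519.6 in Tg(ins:il1b), with no overlap. Its log2 fold change was 4.48 (standard error 0.68) with an adjusted p of 0.0398 from limma, 2.79e-10 from DESeq2 and 0.0524 from edgeR. In the fits without 1 library its log2 fold change was 3.60 to 5.35 in limma and 3.63 to 5.54 in DESeq2, which called it each time. The related ccl19a.1 had 39.5 and 346.3 in WT against 249.6 and 1342.2 in Tg(ins:il1b), which overlap (limma, adjusted p = 0.434). It lies over ube2l3b on the opposite strand, whose reads cannot be told from its own.

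Most CC ligand genes of chromosome 25 form a tandem cluster, while ccl35.2 and ccl39a.10 lie apart from it. The cluster, with 7 members between 12828644 and 12954454, summed to 385.7 and 244.9 normalised counts in WT against 865.1 and 1922.4 in Tg(ins:il1b). Its most abundant gene, ccl39.7, had 150.6 and 143.7 in WT against 455.8 and 704.2 in Tg(ins:il1b), and the genotypes were well apart. The log2 fold change of 1.94 (standard error 0.34) missed the threshold in limma (adjusted p = 0.0530) and edgeR (0.0554) and passed it in DESeq2 (3.43e-05, but 0.0551 without Tg(ins:il1b) replicate 2). The neighbouring ccl39.6 had 179.1 and 92.6 in WT against 174.8 and 297.1 in Tg(ins:il1b), and overlapped.

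The other genes of the cluster had at most 32.1 normalised counts in WT. The gene ccl35.1 had 0 and 4.8 in WT against 28.3 and 473.4 in Tg(ins:il1b) (limma, adjusted p = 0.160). The gene ccl39.5 had reads only in Tg(ins:il1b) replicate 2, with 97.2, and ccl39.3 of chromosome 25 had 2.8 and 1.9 against 9.1 and 23.5. The gene ccl39.1 had 32.1 and 0 in WT against 195.1 and 234.0 in Tg(ins:il1b) (limma, adjusted p = 0.187). It overlaps ccl39.2 on the same strand (21.1 and 1.9 against 2.0 and 93.0), and reads may be shared among these copies, so the values of single genes in this cluster are uncertain.

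Outside the cluster, ccl39.3 of chromosome 6 had 402.3 and 516.1 in WT against 861.1 and 853.8 in Tg(ins:il1b), without overlap. The log2 fold change of 0.91 (standard error 0.25) did not pass the test (adjusted p = 0.170 from limma and 0.0624 from DESeq2). It overlaps CDH22 on the same strand. The gene ccl25b, whose mammalian counterpart guides T cell precursors to the thymus and T cells to the gut through CCR9, had 45.9 and 1.0 in WT against 139.5 and 100.5 in Tg(ins:il1b) (limma, adjusted p = 0.311). The gene ccl34a.3 was the reverse, with 13.8 and 15.4 in WT and 0 in both Tg(ins:il1b) libraries, at least 4.68-fold lower against a floor of 3 reads per library (limma, adjusted p = 0.190). The gene ccl20b, whose mammalian counterpart is the ligand of CCR6, had 0 and 2.9 in WT against 5.1 and 91.9 in Tg(ins:il1b), a ratio of summed counts of 33.5 (95% interval 11.1 to 165, counting error only) that rests on Tg(ins:il1b) replicate 2 and is 3.61 with replicate 1 alone.

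**Figure D3:**
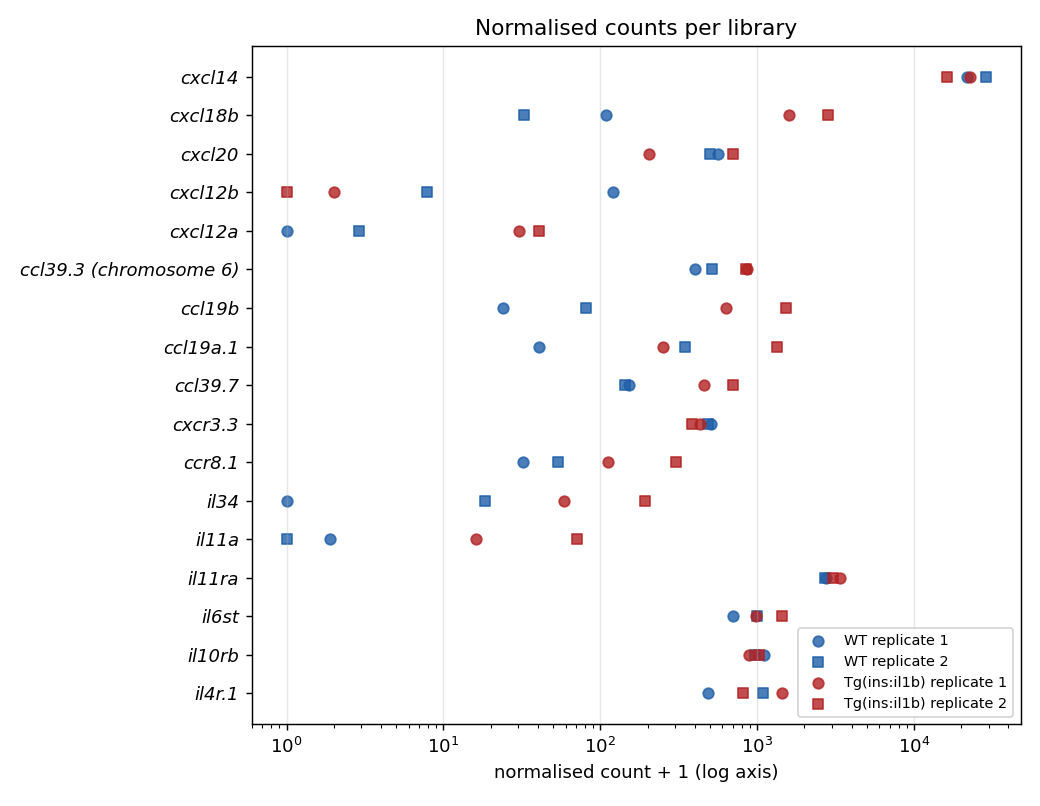
Normalised count + 1 (horizontal log axis) of 17 members in each of the 4 libraries, with WT in blue and Tg(ins:il1b) in red, circles for replicate 1 and squares for replicate 2. The red points of cxcl18b (1591.8 and 2836.1) and ccl19b (632.7 and 1519.6) stand far to the right of the blue ones, while those of cxcl14, il11ra and il10rb lie among or close to them.

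The CXC receptor genes were led by cxcr3.3, which in zebrafish encodes a Cxcr3 paralogue that acts as a ligand scavenger. It had 505.1 and 485.3 normalised counts in WT against 430.5 and 383.6 in Tg(ins:il1b), slightly lower without overlap, a log2 fold change of -0.28 with a standard error of 0.26 (limma, adjusted p = 0.709). The signalling paralogue cxcr3.2 had 0.9 and 0 in WT against 3.0 and 17.1 in Tg(ins:il1b), and cxcr3.1 had 14.7 and 4.8 against 14.1 and 12.8.

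Receptors of the cxcl12 products were at or below 38.6 normalised counts in WT. The gene cxcr4a had no read in either WT library and 14.1 and 15.0 normalised counts in Tg(ins:il1b), at least 5.15-fold higher against a floor of 3 reads per library (limma, adjusted p = 0.190). Its paralogue cxcr4b, abundant in zebrafish leukocytes, had 2.8 and 38.6 in WT against 14.1 and 203.0 in Tg(ins:il1b), so that Tg(ins:il1b) replicate 2 alone lay above WT. The scavenger gene ackr3a had 30.3 and 30.9 in WT against 104.1 and 72.7 in Tg(ins:il1b), without overlap, and its fold change was 1.48 on the log2 scale with a standard error of 0.52 (limma, adjusted p = 0.261). Of the 5 members cxcl12a, cxcl12b, cxcr4a, cxcr4b and ackr3a, limma called 0 and DESeq2 called cxcl12a higher and cxcl12b lower. Among all genes, DESeq2 called 4.24% higher and 2.45% lower, and of those tested 22.3% lay above WT and 22.1% below it. In both Tg(ins:il1b) libraries cxcl12a, cxcr4a and ackr3a lay above WT and cxcl12b below it, cxcr4b overlapped, and cxcl12a and cxcr4a passed the filter only through the Tg(ins:il1b) libraries.

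**Figure D4:**
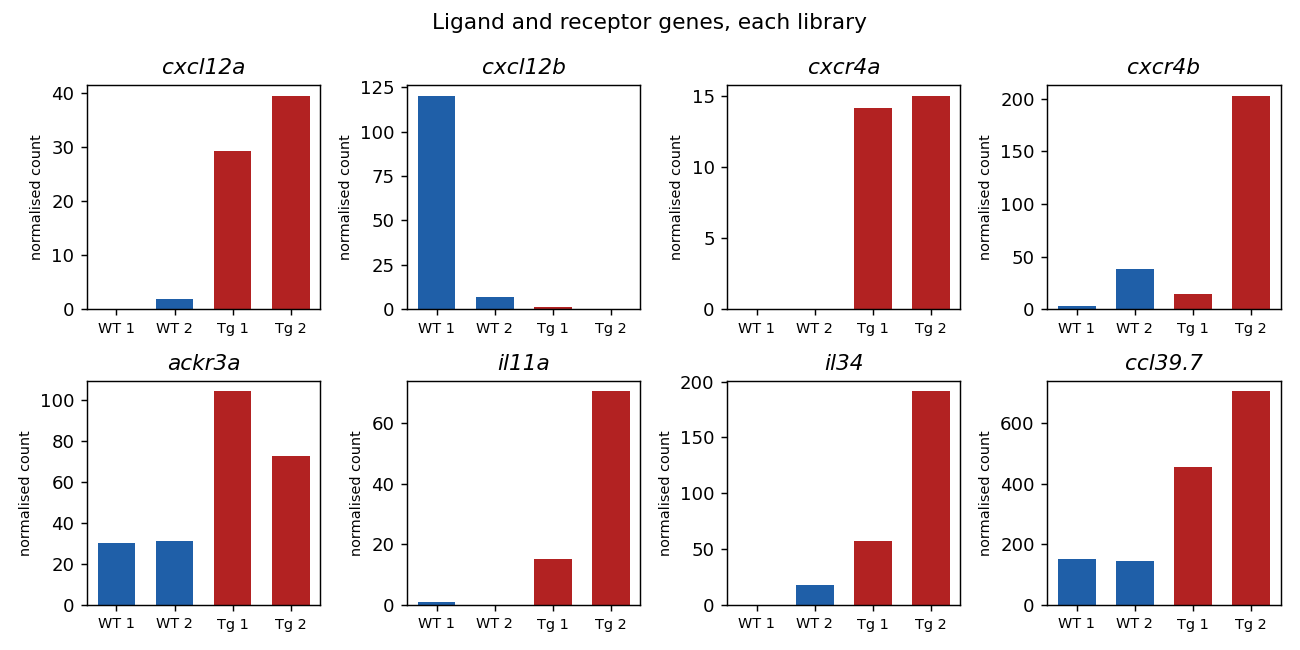
Normalised counts (vertical axes, linear from 0, a scale per panel) of 8 members in WT replicates 1 and 2 (blue) and Tg(ins:il1b) replicates 1 and 2 (red). The bars of cxcl12a, cxcr4a, ackr3a, il11a, il34 and ccl39.7 are higher in both Tg(ins:il1b) libraries, cxcl12b is at 120.3 in WT replicate 1 and at most 6.8 elsewhere, and cxcr4b is at 203 in Tg(ins:il1b) replicate 2.

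Among the CC receptor genes, ccr8.1 had 31.2 and 53.1 normalised counts in WT against 111.2 and 302.4 in Tg(ins:il1b). Its mammalian counterpart is found on regulatory and type 2 helper T cells. The values did not overlap, and the log2 fold change of 2.14 (standard error 0.62) had an adjusted p of 0.181 from limma, 0.0138 from DESeq2 and 0.167 from edgeR. The DESeq2 call was lost without WT replicate 1 (adjusted p = 0.280) and without Tg(ins:il1b) replicate 2 (0.722). The gene ccr9a, whose counterpart is the receptor of CCL25, had 0 and 16.4 in WT against 24.3 and 37.4 in Tg(ins:il1b) (limma, adjusted p = 0.427). The genes ccr6a (38.6 and 86.8 against 49.5 and 5.3) and ccr11.1 (17.5 and 1.0 against 1.0 and 13.9) overlapped. The atypical receptor gene ackr4a, whose counterpart scavenges CCL19, CCL21 and CCL25 in mammals, had 280.1 and 329.9 in WT against 279.9 and 431.7 in Tg(ins:il1b). Its change on the log2 scale was 0.19 with a standard error of 0.33 (limma, adjusted p = 0.869), and turned to -0.12 without Tg(ins:il1b) replicate 2. The gene ackr4b had 8.5 to 26.3 and overlapped.

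Of the interleukin genes, limma called 0, and DESeq2 called il34 and il11a higher, where it called 4.24% of all genes higher. The protein of il34 is a ligand of the macrophage receptor Csf1r and brings macrophages into tissues of the zebrafish embryo. The gene had 0 and 17.4 normalised counts in WT against 57.6 and 191.3 in Tg(ins:il1b), with no overlap. Its log2 fold change was 4.63 (standard error 1.44), with an adjusted p of 0.209 from limma, 0.0360 from DESeq2 and 0.294 from edgeR. In DESeq2 the adjusted p was 0.142 without WT replicate 1, 0.00191 without WT replicate 2, 0.864 without Tg(ins:il1b) replicate 1 and 0.719 without Tg(ins:il1b) replicate 2.

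The gene il11a, a member of the interleukin-6 family, had 0.9 and 0 in WT against 15.2 and 70.5 in Tg(ins:il1b). It passed the filter only through the Tg(ins:il1b) libraries. The WT libraries held 1 read in all, and the ratio of the summed counts was 89.4 (95% interval 15.6 to 3575, counting error only), or 32.3 with Tg(ins:il1b) replicate 1 alone. Its adjusted p was 0.141 from limma, 0.0143 from DESeq2 and 0.121 from edgeR, and of the DESeq2 fits without 1 library it was called only in that without Tg(ins:il1b) replicate 1. The receptor chains for interleukin-11 were abundant in both genotypes. The gene il11ra, for its specific chain, had 2759.0 and 2712.9 in WT against 3379.6 and 3031.7 in Tg(ins:il1b) (log2 fold change 0.23, standard error 0.19, adjusted p = 0.683 from limma). The gene il6st, for the gp130 chain shared across the family, had 700.8 and 989.8 in WT against 985.4 and 1443.7 in Tg(ins:il1b) and overlapped (limma, adjusted p = 0.510). The gene il6r had at most 11.9 in any library.

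The anti-inflammatory cytokine gene il10 had no read in WT and 6.1 and 26.7 normalised counts in Tg(ins:il1b). The mean was at least 5.81-fold higher against a floor of 3 reads per library. This bound rests mainly on Tg(ins:il1b) replicate 2, with 25 reads against 6 in replicate 1. The gene il10 did not pass the filter for limma. Its ligand-binding chain gene il10ra had 0 and 1.9 in WT against 13.1 and 15.0 in Tg(ins:il1b), a ratio of summed counts of 14.9 (95% interval 3.75 to 129, counting error only). The gene il10ra passed the filter only through the Tg(ins:il1b) libraries and was not called. Its adjusted p was 0.286 from limma and 0.269 from edgeR, and DESeq2 gave none. The gene il10rb, for the chain shared with the interleukin-22 receptor, had 1097.5 and 971.5 in WT against 891.4 and 1025.9 in Tg(ins:il1b), which overlap (log2 fold change -0.11, adjusted p = 0.893 from limma). The gene il22, whose product protects epithelia, had 0 and 5.8 in WT against 1.0 and 58.8 in Tg(ins:il1b). The gene il20ra had 14.7 and 16.4 in WT against 28.3 and 52.4 in Tg(ins:il1b), without overlap.

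Genes of type 2 cytokines were low while a receptor gene was abundant. The gene il4 had 11.0 and 5.8 in WT against 2.0 and 0 in Tg(ins:il1b), and il13 had 11.9 and 15.4 in WT against 0 and 8.5 in Tg(ins:il1b). Each was lower in Tg(ins:il1b) without overlap, with an adjusted p of 0.530 from limma for il13 and no test for il4. The receptor gene il4r.1 had 482.2 and 1096.0 in WT against 1449.3 and 812.2 in Tg(ins:il1b), which overlap (limma, adjusted p = 0.660). The gene il13ra1 had 0.9 and 15.4 in WT against 9.1 and 76.9 in Tg(ins:il1b).

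Of the genes for cytokines of the common γ chain, il15, which sustains natural killer and memory T cells in mammals, had 271.9 and 306.8 in WT against 167.8 and 257.5 in Tg(ins:il1b), and il15l had 127.7 and 248.9 against 118.2 and 384.7. The values of il15 did not overlap, and the log2 fold change was -0.47 with a standard error of 0.35 (limma, adjusted p = 0.627), and it lies over inpp4b on the opposite strand. The gene il2rgb, for a common γ chain, had 61.5 and 82.0 in WT against 25.3 and 13.9 in Tg(ins:il1b). It was lower in both Tg(ins:il1b) libraries, and the log2 fold change was -1.86 with a standard error of 0.61 (adjusted p = 0.231 in limma and 0.164 in DESeq2). The genes il2rb and il21r.1 had at most 10.6 and 33.1 normalised counts.

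Ligand genes of the interleukin-12 and interleukin-17 families were at low levels. The subunit genes il12a, il12ba and il12bb had between 1.0 and 23.2 normalised counts, and il12rb2, for a receptor chain of interleukin-12, had 51.4 and 74.3 in WT against 144.5 and 114.3 in Tg(ins:il1b). The values of il12rb2 did not overlap, and the log2 fold change was 1.04 with a standard error of 0.45 (limma, adjusted p = 0.361). The genes il23r (13.8 and 52.1 against 8.1 and 18.2) and il12rb2l (63.4 and 75.3 against 65.7 and 86.6) overlapped. The gene il17c, which acts on epithelia in mammals, had 15.6 and 20.3 in WT against 2.0 and 12.8 in Tg(ins:il1b), below WT in both, and il17d had 9.2 to 20.2. The receptor gene il17ra1a had 123.3 to 174.2 in the 4 libraries, where the log2 fold change was 0.047 (standard error 0.39). The gene il16 had 54.0 to 111.1.

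Many members were higher in replicate 2 of Tg(ins:il1b) than in replicate 1. Of 50 members with at least 20 normalised counts in a Tg(ins:il1b) library, 18 (36.0%) were at least 3-fold higher in replicate 2 than in replicate 1 and 2 (4.00%) were at least 3-fold higher in replicate 1, against 8.14% and 3.49% of 17305 genes. The 2 were ccr6a and ackr4b. Replicate 2 of Tg(ins:il1b) had the highest value of the 4 libraries for 40 of the 72 members (55.6%) and for 29.7% of all genes. By class this was so for 13 of 18 CC ligands, 9 of 11 CXC ligands, 5 of 14 interleukins and 7 of 17 interleukin receptors.

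**Figure D5:**
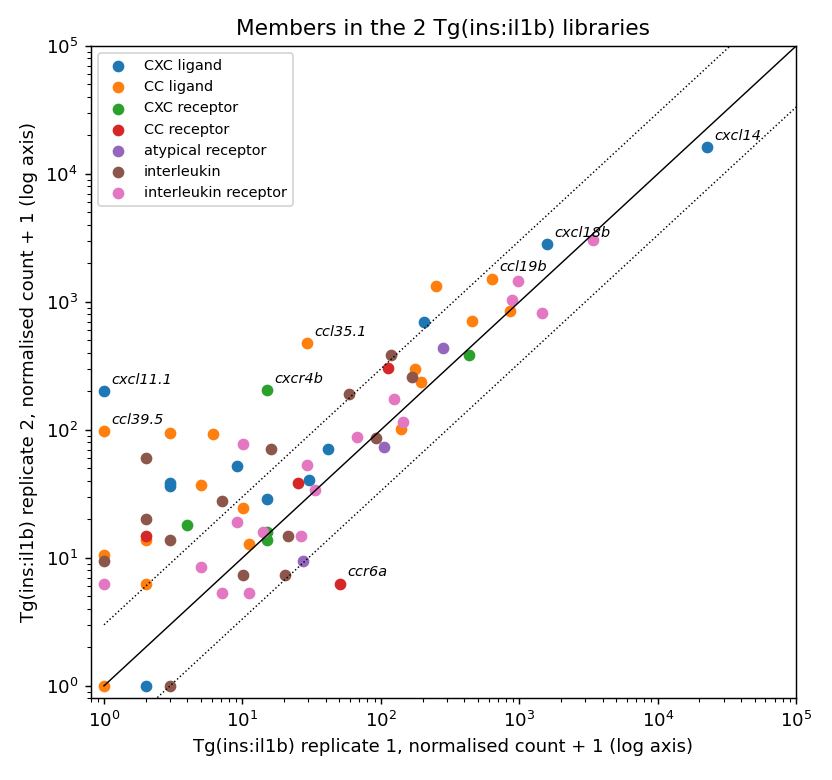
Normalised count + 1 of each of the 72 members in Tg(ins:il1b) replicate 1 (horizontal log axis) against replicate 2 (vertical log axis), coloured by class, with the line of equality and dotted lines at 3-fold. More members lie above the upper dotted line than below the lower one, among them ccl39.5 and cxcl11.1, which were at 0 in replicate 1.

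Markers of macrophages and other leukocytes also had higher summed levels in Tg(ins:il1b). Of 30 such markers, 29 were in the table, and their summed level was 35199.1 and 39894.6 normalised counts in WT against 43585.1 and 78228.2 in Tg(ins:il1b). Most of this sum came from cd74a (2264 and 10770.5 against 13411.3 and 37922.1) and cd74b (1401.5 and 5737.4 against 4963.3 and 15483.2), of the MHC class II invariant chain, and from grna (30313.3 and 22031.2 against 22251.4 and 17480.5), none of which was called by limma or DESeq2. The median log2 fold change over the tested markers was 1.74. Of the 25 tested, limma called 1 higher (cd83, which activated antigen-presenting cells express) and 0 lower, with 12 higher unadjusted. DESeq2 called 8 higher. In both Tg(ins:il1b) libraries 17 of the 29 in the table were above WT and 1 was below, against 22.3% and 22.1% of all genes tested. Over all genes, 7.95% were higher unadjusted in limma, and DESeq2 called 4.24% higher. The pan-leukocyte gene ptprc had 6.4 and 6.8 in WT against 33.4 and 41.7 in Tg(ins:il1b). The defining genes lcp1 (56.6) and mpeg1.1 (20.3) were highest in Tg(ins:il1b) replicate 2. In Tg(ins:il1b) replicate 1, lcp1, mpeg1.1, c1qa and havcr1 were at 0. Of these, lcp1, mpeg1.1 and c1qa were also at 0 in WT replicate 1. Other markers had reads in Tg(ins:il1b) replicate 1, such as mfap4 (22.2), cybb (20.2) and c1qb (25.3). Those highest in that library included coro1a (15.6 and 24.1 in WT against 57.6 and 36.3 in Tg(ins:il1b)) and irf8 (11.9 and 13.5 against 47.5 and 19.2).

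The summed levels of neutrophil and lymphocyte markers were also highest in Tg(ins:il1b) replicate 2. Of the 7 neutrophil markers in the table, 5 were above WT in both Tg(ins:il1b) libraries, and of the 6 tested limma called 0 (3 higher unadjusted) and DESeq2 called 3 higher. Among all genes tested, 22.3% were above WT in both Tg(ins:il1b) libraries. Limma had 7.95% of all genes higher unadjusted, and DESeq2 called 4.24% higher. The granule gene npsn had 2.8 and 0 in WT against 84.9 and 68.4 in Tg(ins:il1b), and mpx had 0 to 8.5. The list summed to 2183.1 and 2054.9 in WT against 2261.8 and 4837.6 in Tg(ins:il1b). In WT and in Tg(ins:il1b) replicate 1 this was mostly nccrp1, at 1550.3 to 1783.6. In Tg(ins:il1b) replicate 2 nccrp1 was at 2220.6 and pnp5a at 1988.7. The values of pnp5a elsewhere were 333.4 and 224.8 in WT and 489.2 in Tg(ins:il1b) replicate 1 (adjusted p = 0.00773 from DESeq2 and 0.255 from limma). The 8 lymphocyte markers summed to 18.4 and 39.6 in WT against 20.3 and 89.7 in Tg(ins:il1b), with lck highest in replicate 1 (7.1).

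Of the other marker lists, those of β-cells and of duct and epithelium held calls. Of the 11 β-cell markers tested, limma called pcsk2, of a prohormone convertase, lower (15238.8 and 11639.8 in WT against 3767.7 and 3419.6 in Tg(ins:il1b)). DESeq2 called pcsk2 and ins lower, and the median log2 fold change was -0.65, against -0.0094 over all genes tested. Over all genes, limma called 0.530% lower and DESeq2 2.45%. The β-cell markers did not all move in 1 direction. In both Tg(ins:il1b) libraries 6 of the 12 lay below WT and 4 above it, against 22.1% and 22.3% of all genes tested. Those below included ucn3l (5899.2 and 9440.1 against 271.9 and 1949.2), and those above included nkx2.2a (3711.4 and 4423.4 against 6452 and 6849.9). Before adjustment, limma had 4 of the 11 lower and 1 higher, against 6.45% and 7.95% of all genes. Of the 8 duct and epithelium markers tested, limma called 0 (4 higher unadjusted), DESeq2 called anxa4 higher (187.4 and 388.8 against 894.4 and 2380.9), and the median was 1.11. Among all genes, limma had 7.95% higher unadjusted, DESeq2 called 4.24% higher and the median was -0.0094. The part of these cell types in the values of the chemokine and interleukin genes was not tested.

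A number of genes downstream of the interleukin-1 receptor and of NF-κB rose in Tg(ins:il1b). Of 26 such genes in the table, 25 were tested, of which 9 rose and 0 fell in limma, 10 were higher in DESeq2 and 7 in edgeR. Among all genes, limma called 1.1% higher and 0.530% lower, while DESeq2 called 4.24% higher and edgeR 0.903%. The median log2 fold change of the list was 0.68, against -0.0094 for all genes tested. Most of the 9 restrain the pathway. The inhibitor gene nfkbiaa had 54.2 and 59.8 normalised counts in WT against 1530.1 and 3426.0 in Tg(ins:il1b) (limma, adjusted p = 0.0106). The A20-binding inhibitor gene tnip2 had 25.7 and 17.4 in WT against 739.8 and 1087.9 in Tg(ins:il1b) (limma, adjusted p = 0.00997). The others were irak3, nfkb2, relb, nfkbib, nfkbie, tnfaip3 and bcl3. Of these, the text of the study names nfkbie as strongly upregulated, from these same samples.

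Among genes that act downstream of the members' own receptors, limma called only 1, and DESeq2 called a few in each direction. Over all genes, limma had 7.95% higher and 6.45% lower before adjustment, and DESeq2 called 4.24% and 2.45%. The median log2 fold change of all genes tested was -0.0094. Of 28 tested JAK-STAT genes, limma called 0 higher and 1 lower (5 and 2 before adjustment), and DESeq2 2 in each direction, with a median log2 fold change of -0.034. The gene that fell, stat5a, a transcription factor that acts below γ chain and growth hormone family receptors, had 1694.5 and 2410.0 in WT against 610.4 and 617.7 in Tg(ins:il1b). Its change on the log2 scale was -1.72 with a standard error of 0.25 (limma, adjusted p = 0.0370). Of 19 tested genes for G proteins, arrestins and regulators that serve chemokine receptors, limma called 0, with 2 higher and 3 lower before adjustment, and DESeq2 called 2 in each direction, with a median of -0.072. Of 8 tested genes for other cytokines and growth factors, limma called 0, with 2 higher and 0 lower unadjusted, and DESeq2 called tgfb1a higher (1134.3 and 1270.6 in WT against 2537.7 and 3265.7). The gene tnfa had reads only in Tg(ins:il1b) replicate 2, with 119.7 normalised counts.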

How the data were processed

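Messenger RNA of sorted β-cells was sequenced in 2 WT and 2 Tg(ins:il1b) libraries. Paired-end reads were mapped by the authors to GRCz10 using GSNAP, both named in the submitters' processing notes. The authors deposited a signal per gene, called normalised counts: the reads of a gene over a factor per library, with 1 decimal. For the counter, its strand setting, the normalisation tool and the version of GSNAP, the entry is not given in the sources used here, and reads of overlapping genes cannot be told apart. Divided by the value of 1 read, all entries were whole within 0.1, and DESeq2 size factors matched these steps. Replicates were not duplicates (chi-square per degree of freedom 148 in WT, 140 in Tg(ins:il1b)).

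The test was limma 3.58.1 (R 4.3.3) with a variance trend on log2(value + 1), for the 18504 genes with 10 or more normalised counts in 2 or more libraries. With 2 residual degrees of freedom, the Benjamini-Hochberg adjustment ran over all these genes, at a threshold of 0.05. DESeq2 1.42.0 and edgeR 4.0.16 were run on the whole reads. DESeq2 called 1245 genes of the whole table, the same number that the study reports as differentially expressed. The methods of the study do not name the tool of its test. Other pseudocounts (0.5 and 5), filters, scalings, a replicate block and fits without each library were also tried. Intervals and the floor of 3 reads cover counting error only. Members named were those called by any of the 3 tools, the 12 with the highest mean, ligand and receptor partners from a list of families, and those at 0 in 1 genotype and above 10 in both libraries of the other. Outside this rule, cxcl19, ccl20b, ccl35.1, ccl39.1, ccl39.2, ccl39.3 of chromosome 25, ccl39.5, ccl39.6, ccr6a, ccr11.1, ackr4a, ackr4b, il15l, il16 and il21r.1 were named for their class or cluster after their values were seen. The members, lists and tests were chosen with earlier results of these data known. Python 3.11.15, pandas 2.3.3, numpy 2.4.6, scipy 1.17.1 and matplotlib 3.10.9 served for tables and figures.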

Additional observations from a re-analysis of the deposited data

How the results depend on the processing

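The number of members called depended on the tool. It was 2 in limma and stayed at 2 or 3 with pseudocounts of 0.5 and 5, without a filter, with at least 50 normalised counts, with TMM scaling and with totals without hormone genes and il1b. It was 8 in DESeq2, 1 in edgeR, 0 without the variance trend and 0 in limma without any of the 4 libraries, fits that called 13 and at most 1 gene of the whole table, against 302 with all libraries and the trend, and so bear on no single member. In fits chosen after seeing the data, leaving out each library gave 2 to 10 in DESeq2 (6 and 10 without WT replicates 1 and 2, 9 and 2 without Tg(ins:il1b) replicates 1 and 2), with cxcl18b and ccl19b among them each time, and 0 to 6 in edgeR, which called 1 gene of the whole table without either WT library. With the replicate block it was 5 (cxcl18b, ccl19b, ccl19a.1, ccl39.7 and ccl35.1), but whether the shared numbers pair the samples is not known. The deviations of same-numbered libraries correlated at 0.033, and this correlation cannot show whether a smaller set of genes followed the numbers.

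Genes called in the 4 pathway lists numbered 10 in limma, 0 without the variance trend, 19 in DESeq2, 0 in limma without any library, 12 with the replicate block, and 12 to 24 in DESeq2 and 0 to 14 in edgeR without each library. Of the log2 fold changes of the 31 members for which a fold change or a test is given, 613 alternatives kept direction and side of the threshold, 28 moved past it, 16 no longer passed it and 16 reversed. Those that reversed, none past the threshold, were cxcl20 without Tg(ins:il1b) replicate 1 (0.40 in limma and in DESeq2 and 0.42 in edgeR, with a range from -1.36 over the limma fits without 1 library), cxcr4b without Tg(ins:il1b) replicate 2 (-0.54 in DESeq2 and -0.54 in edgeR), ackr4a without Tg(ins:il1b) replicate 2 (-0.12 in all 3 tools, with limma values up to 0.50 without another library), il10rb in edgeR without Tg(ins:il1b) replicate 1 (0.0072) il17ra1a without WT replicate 1 (-0.083 in limma, -0.064 in DESeq2 and -0.046 in edgeR) and without Tg(ins:il1b) replicate 2 (-0.20 in limma, -0.20 in DESeq2 and -0.21 in edgeR, with limma values up to 0.29 without another library) and il4r.1 without WT replicate 1 (-0.015, with limma values up to 1.17 without another library). Over all 53 tested members, 19 changed direction in at least 1 alternative, none of them past the threshold. The other 13, named here without values, were ackr4b, ccl36.1, ccl39.2, ccr11.1, cxcl11.6, cxcl11.7, cxcl8b.1, cxcr3.1, il12a, il12bb, il12rb2l, il15l and il16, each in fits without 1 library and ccl36.1 also in DESeq2 on all 4. The cause was not tested. With 2 libraries per genotype and 17 members at a mean below 10 normalised counts, a missing call does not show that a member was unchanged. The scalings moved the median of all genes by less than 0.1 on the log2 scale.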
